A study of Mus musculus with 13 samples.

Results

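The genes that encode voltage-gated and TRPC ion channels were read in the arcuate nucleus of mice that lacked Klf4 in Agrp-expressing cells and of control littermates, on a high-fat diet (HFD) and on chow. A channel gene was a protein-coding gene whose symbol names a potassium channel (Kcn), calcium channel (Cacna, Cacnb or Cacng), sodium channel (Scn), HCN or TRPC subunit, or Cachd1, and it was kept where at least 10 counts were found in at least 3 libraries. By symbol 145 genes matched, and 134 of these were kept, out of 55421 gene identifiers in the deposited table and 24069 with the same count. The kept genes just inside the count limit were Kcnk15 and Scn10a, with 11 and 16 counts in their third-highest library, and the genes just outside it were Kcnj15 and Kcne2, with 9 and 8 counts. The 11 genes left out were Kcnmb3, Kcna7, Kcnj1, Scn4a, Cacng1, Kcnk16, Kcne2, Kcne1, Kcnj15, Kcnv2 and Kcnk18.

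The arcuate nucleus is a part of the hypothalamus that holds the AgRP and POMC neurons, and Klf4 encodes a zinc-finger transcription factor. On HFD there were 3 KO and 4 control libraries, and on chow there were 3 KO and 3 control libraries, with male and female mice in each group by the letter in the titles. KO mice carried an Agrp-driven Cre and a floxed Klf4, and the controls were littermates whose own alleles are not given in the labels. All mice were 20 weeks old at collection, and HFD mice had received the diet for the last 10 weeks. RNA came from arcuate tissue and not from sorted cells, while the Cre acts in Agrp-expressing cells, so that fewer cells of a type and less RNA per cell cannot be told apart. Nothing says whether a library is 1 animal or a pool, and p-values measure the spread between libraries.

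Channel proteins set how a neuron fires. Voltage-gated sodium (Nav) channels carry the upstroke of the action potential, voltage-gated potassium (Kv) channels end it, and voltage-gated calcium (Cav) channels admit the calcium that triggers transmitter release. Inward rectifier (Kir) and K2P potassium channels hold the resting potential, HCN channels carry a pacemaker current, and calcium- or sodium-activated potassium channels link firing to internal ions. TRPC channels are cation channels opened downstream of receptors, and in POMC neurons TRPC5 is known to take part in the response to leptin. By symbol there were 38 Kv pore genes, 10 Kv auxiliary genes, 11 calcium- or sodium-activated K genes, 13 Kir genes, 12 K2P genes, 10 Cav pore genes, 16 Cav auxiliary genes, 9 Nav pore genes, 4 Nav beta genes, 4 HCN genes and 7 TRPC genes.

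Library totals ranged from 34.7 to 68.2 M counts. Klf4 itself was at 2.42 to 5.75 CPM (counts per M counts, scaled by TMM factors) in KO on HFD, against 1.60 to 5.47 CPM in controls on HFD, and at 2.17 to 3.07 CPM in KO on chow, against 2.35 to 3.21 CPM in controls on chow, so whole-tissue counts did not separate the genotypes. Reads went against the labels in 2 control libraries. Hsd11b2, which lies near Agrp, was at 60.8 to 69.4 CPM in all 6 KO libraries and at 63.4 CPM in the library labelled Control_HFD replicate 3, while the other 6 control libraries had 0.339 to 1.57 CPM. The library labelled Control_Chow replicate 3 has the sex letter F in its title but 0.692 CPM of Xist, a transcript of females, which was at 38.8 CPM or more in every remaining library with that letter. By reads all 3 chow controls were male while KO on chow held 1 male and 2 female mice. Both libraries were kept as labelled, and the counts and many of the single genes are also given without them.

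The promoters of 4 channel genes are shown because these genes were among those with the smallest p between KO and control on chow, 3 of them lower and Trpc6 higher in KO. Each run is the 250 bases before the RefSeq start (GRCm38.p6), read on the gene's own strand, with the boxes CACCC (or its complement GGGTG), the core bound by Krüppel-like factors, and GGGCGG (or CCGCCC) in capitals. They lie at chr4:100776429-100776678 (Cachd1, plus strand), chr2:24763153-24763402 (Cacna1b, minus strand), chr2:66440838-66441087 (Scn1a, minus strand) and chr9:8543892-8544141 (Trpc6, plus strand).
Cachd1: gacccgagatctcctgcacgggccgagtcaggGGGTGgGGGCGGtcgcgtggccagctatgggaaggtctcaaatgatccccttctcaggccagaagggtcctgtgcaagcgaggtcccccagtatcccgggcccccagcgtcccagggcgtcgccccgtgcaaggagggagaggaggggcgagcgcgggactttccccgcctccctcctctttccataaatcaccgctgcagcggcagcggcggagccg
Cacna1b: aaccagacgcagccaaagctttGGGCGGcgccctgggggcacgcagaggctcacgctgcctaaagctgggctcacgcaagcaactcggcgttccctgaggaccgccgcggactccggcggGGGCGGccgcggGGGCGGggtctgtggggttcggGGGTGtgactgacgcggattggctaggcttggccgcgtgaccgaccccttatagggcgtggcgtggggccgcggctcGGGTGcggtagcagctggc
Scn1a: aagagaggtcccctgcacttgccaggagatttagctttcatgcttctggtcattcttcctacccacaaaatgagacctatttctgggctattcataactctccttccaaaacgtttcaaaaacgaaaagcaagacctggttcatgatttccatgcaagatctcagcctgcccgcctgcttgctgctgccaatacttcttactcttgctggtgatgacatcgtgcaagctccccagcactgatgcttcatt
Trpc6: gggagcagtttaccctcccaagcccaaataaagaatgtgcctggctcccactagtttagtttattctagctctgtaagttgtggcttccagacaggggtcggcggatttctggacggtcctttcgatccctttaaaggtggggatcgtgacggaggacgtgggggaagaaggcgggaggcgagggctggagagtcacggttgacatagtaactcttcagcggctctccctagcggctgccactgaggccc
The Cachd1 window held 1 CACCC box and 1 GGGCGG box, the Cacna1b window 2 and 3, and the Scn1a and Trpc6 windows neither. Boxes were searched on both strands, and the capitals of the 2 boxes do not overlap in these windows. Of the 134 channel genes, 99 were matched in the RefSeq promoter table. A CACCC box was found in 71 of these (71.7%), against 51.3% of 27025 genes, and a GGGCGG box in 50 (50.5%), against 32.9%. The 27025 genes are all those in the promoter table, not only genes with counts here, and base composition was not matched. These are letters in a window and not binding sites.

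Channel genes covered a wide range of levels in the arcuate nucleus. Per length, the median over the 134 genes was 2.89 RPKM (counts per kb and M counts, mean over 13 libraries), with 25 genes above 10 and 32 below 1. Among the highest were Kcnk1 at 26.4 RPKM, a K2P leak channel, and Kcna3 at 25.7 RPKM, a delayed-rectifier Kv pore. The lowest was Scn10a at 0.0286 RPKM, a Nav pore of sensory neurons.

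**Figure D1:**
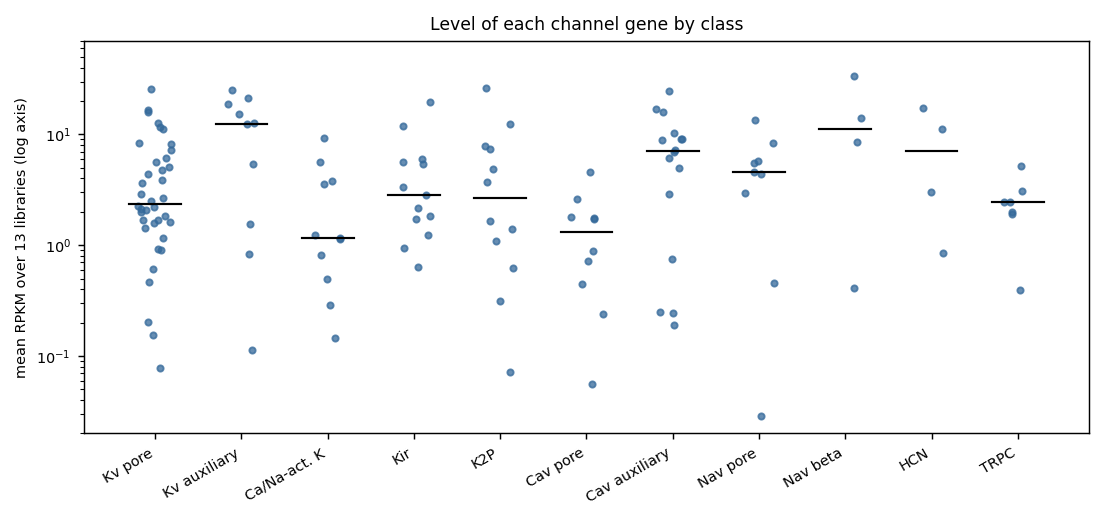
Mean deposited RPKM over the 13 libraries (log axis) of each of the 134 channel genes, by class, with 1 point per gene and a bar at the class median. Single classes span from below 1 to above 10 RPKM, except that no Cav pore, TRPC or calcium- or sodium-activated K gene was above 10.

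Within the Kv, Nav and Cav families, auxiliary subunits had the higher class medians and pore subunits the lower. The median was 12.5 RPKM for Kv auxiliary genes, 11.3 RPKM for Nav beta genes and 7.11 RPKM for Cav auxiliary genes, against 2.36 RPKM for Kv pores, 4.60 RPKM for Nav pores and 1.31 RPKM for Cav pores. Among the Kv auxiliary genes Kcnip3 (25.4 RPKM) and Kcnip4 (21.5 RPKM) encode calcium-binding partners of the A-type pores, and among the Cav auxiliary genes Cacnb3 (24.4 RPKM) encodes a cytosolic beta subunit. The leading Kv pores after Kcna3 were Kcna6 at 16.6 RPKM and Kcnd2, an A-type pore, at 15.8 RPKM. Kcnq3 and Kcnq5, pores of the M-current that damps repetitive firing, were at 0.901 and 2.09 RPKM.

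Nav pores were led by Scn2a at 13.6 RPKM and Scn3a at 8.34 RPKM, pores prominent in developing neurons and unmyelinated axons, with Scn1a at 4.60 RPKM and Scn8a at 4.42 RPKM. Of the Cav pores the T-type gene Cacna1h was highest at 4.57 RPKM, the N-type gene Cacna1b was at 2.61 RPKM and the T-type gene Cacna1g at 1.78 RPKM. Among Kir genes Kcnj16 (19.6 RPKM) and Kcnj10 (5.99 RPKM) encode channels found in glia, and Kcnj9 (12 RPKM), Kcnj3 (5.39 RPKM) and Kcnj6 (1.82 RPKM) encode the G-protein-gated channels of neurons. The pores of the ATP-sensitive channel, through which glucose sets firing, were low, with Kcnj8 at 1.74 RPKM and Kcnj11 at 0.944 RPKM. Hcn2 was at 17.3 RPKM, Hcn3 at 11.2 RPKM and Hcn4 at 0.856 RPKM. The TRPC genes were within 1.93 to 5.15 RPKM, led by Trpc7, except Trpc2 at 0.390 RPKM.

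On chow, most channel genes were lower in KO than in control, and none of them passed the adjusted threshold in the main test. Of the 133 channel genes tested, 100 had a log2 difference below 0 (75.2%), against 50.4% of all 23622 genes, and the median difference was -0.23, against 0.00 over all genes. At an unadjusted p under 0.05 there were 33 channel genes (24.8%, against 12.9% of all genes), 30 of them lower in KO (22.6%, against 6.07%) and 3 higher (2.26%, against 6.84%). The test was edgeR's quasi-likelihood F test, with Benjamini-Hochberg adjustment over all 23622 genes, where 0 genes of any kind were called at 0.05 (0.0%). DESeq2 called 7 channel genes (against 1.41% of all genes), among them Cachd1, Trpc6, Scn1a, Kcnd2 and Cacna1b.

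The number of chow genes at that p varied with 1 control library more than their direction did. Without Control_Chow replicate 3 there were 18 channel genes at an unadjusted p under 0.05 (against 8.42% of all genes), 15 of them lower in KO (against 4.08%). Then 91 had a difference below 0 (against 50.1%), and the median was -0.17. Without both libraries that went against their labels there were 16 of 134 (against 9.95%), which is near the share of all genes. Of these 16, 13 were lower in KO (against 5.11%). In that fit 93 channel genes had a difference below 0 (against 51.1%), with a median of -0.16. Of the 33 genes above, all 33 kept their sign there and 13 kept an unadjusted p under 0.05. With the sex term taken from the reads there were 28 (against 11.2%), 24 of them lower (against 5.23%).

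On chow 36 channel genes were lower in every KO library than in any control library (27.1%, against 9.46% of all genes), and 4 were higher (3.01%, against 10.1%), which were Cacna1s, Kcna5, Trpc6 and Kcne1l.

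Cachd1 encodes a protein related to the alpha2delta subunits of calcium channels. It (ENSMUSG00000028532.14, chromosome 4, 100776675 to 101029220, plus strand) was at 41.2, 43.3 and 42.9 CPM in KO on chow, against 52.9, 65.7 and 58.3 CPM in controls on chow. Every KO value was below every control value. The means were 42.5 ± 1.13 CPM in KO and 58.9 ± 6.43 CPM in controls (SD, n = 3 each), and the edgeR log2 difference was -0.53 ± 0.11 (SE), with an adjusted p of 0.263. Without both doubted libraries it was -0.60, and over the libraries left out in turn it ranged from -0.61 to -0.42. DESeq2 gave -0.53 with an adjusted p of 0.00341.

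Of the Kv pores, 31 of 38 had a difference below 0 (against 50.4% of all genes), and the class median was -0.30. Of these, 9 had an unadjusted p under 0.05 (against 6.07% of all genes lower at that p). Kcnd2 (chromosome 6, 21215503 to 21729805, plus strand) was at 67.8, 68.6 and 81.8 CPM in KO on chow, against 98.9, 90.7 and 95.3 CPM in controls on chow. Every KO library was below the controls, with a difference of -0.38 ± 0.11 and an edgeR adjusted p of 0.263. Kcna3 was at 50.8, 35.5 and 45.5 CPM in KO on chow, against 56.9, 56.7 and 68.3 CPM in controls on chow, with no overlap. It differed by -0.46 ± 0.14 and Kcna2 by -0.61 ± 0.20. Without both doubted libraries Kcna3 differed by -0.28 and Kcna2 by -0.36, at unadjusted p of 0.0729 and 0.135 in edgeR.

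The Nav genes had the lowest class medians, -0.36 for the pores and -0.35 for the betas. Scn1a (chromosome 2, 66270778 to 66440840, minus strand), the pore of fast-firing inhibitory neurons, was at 48.7, 40.7 and 41.9 CPM in KO on chow, against 62.5, 66.1 and 78.0 CPM in controls on chow. All KO libraries were lower than all control libraries, and the difference was -0.64 ± 0.18, with an edgeR adjusted p of 0.264. Without Control_Chow replicate 3, the highest library, it was -0.44, and without both doubted libraries -0.42, at an unadjusted p of 0.0633 in edgeR. Scn2a was at 164, 126 and 148 CPM in KO on chow, against 227, 190 and 240 CPM in controls on chow. These did not overlap either, with a difference of -0.57 ± 0.18, and Scn8a differed by -0.60 ± 0.26. Leaving out both doubted libraries, Scn2a differed by -0.44 and Scn8a by -0.40, at unadjusted p of 0.0884 and 0.255 in edgeR.

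Of the Cav pores 9 of 10 had a difference below 0 (against 50.4% of all genes), with a class median of -0.30. Of the Cav auxiliary genes 10 of 16 did, with a median of -0.11. Cacna1b (chromosome 2, 24603887 to 24763152, minus strand) was at 22.9, 26.2 and 23.4 CPM in KO on chow, against 32.0, 31.6 and 30.1 CPM in controls on chow. The groups did not overlap, and the difference was -0.35 ± 0.10, with an edgeR adjusted p of 0.264. The T-type genes Cacna1g, Cacna1h and Cacna1i differed by -0.43 ± 0.14, -0.36 ± 0.13 and -0.45 ± 0.20, and the L-type gene Cacna1c by -0.37 ± 0.15. Without both doubted libraries Cacna1g, Cacna1i and Cacna1c no longer had an unadjusted p under 0.05 in edgeR, at -0.34, -0.31 and -0.21, and Cacna1h and Cacna1b did, at -0.44 and -0.37. The exception was Cacna1s, a pore known from skeletal muscle, which was low and at 2.27, 2.89 and 2.07 CPM in KO on chow, against 0.693, 1.26 and 1.02 CPM in controls on chow.

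Among Kir genes 12 of 13 had a difference below 0 (median -0.27), against 50.4% of all genes. All 4 HCN genes did (median -0.24), though no HCN gene reached an unadjusted p under 0.05. The G-protein-gated genes Kcnj9, Kcnj3 and Kcnj6 differed by -0.30 ± 0.16, -0.25 ± 0.19 and -0.33 ± 0.13 (for Kcnj6, -0.20 without both doubted libraries, at an unadjusted p of 0.232 in edgeR), and the ATP-sensitive pores Kcnj11 and Kcnj8 by -0.20 ± 0.28 and 0.03 ± 0.24. The K2P genes did not share this, with 5 of 11 below 0 and a median of 0.02. Kcnk1 was at 55.7, 65.6 and 63.7 CPM in KO on chow, against 57.6, 56.7 and 61.7 CPM in controls on chow, and these ranges overlap. The calcium- or sodium-activated K genes had a median of -0.02, which was 0.15 without Control_Chow replicate 3 and -0.12 without KO_Chow replicate 1. Among them Kcnma1, the large-conductance pore, differed by -0.38 ± 0.14 (-0.27 without both doubted libraries, at an unadjusted p of 0.107 in edgeR) and Kcnn3, a small-conductance pore, by -0.04 ± 0.15.

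**Figure D2:**
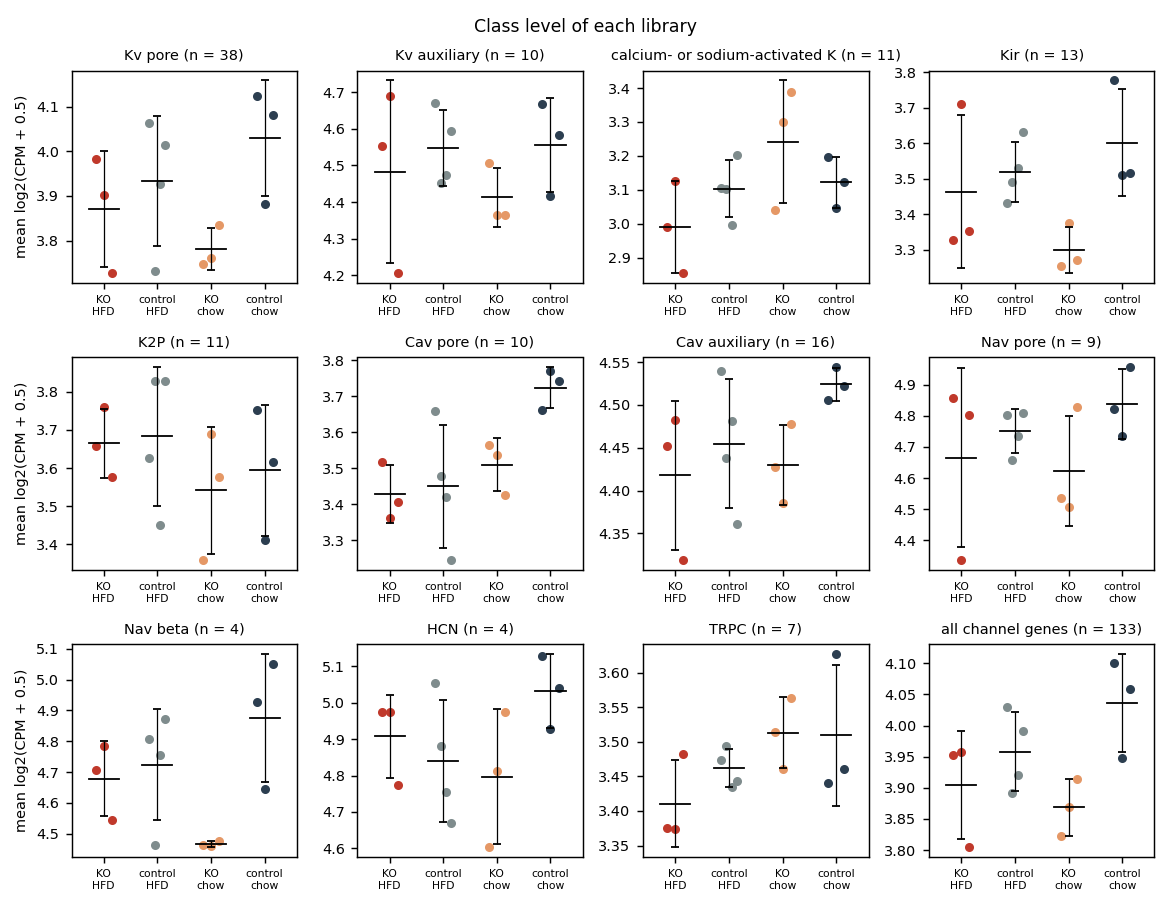
Level of each channel class in each library, as the mean over its genes of log2(CPM + 0.5), with 1 point per library and a bar and whiskers at the group mean and SD (the count of genes stands above each panel). Over all 133 genes KO on chow was at 3.82 to 3.91, below the 3.95 to 4.10 of controls on chow, and KO on HFD at 3.81 to 3.96, overlapping the 3.89 to 4.03 of controls on HFD.

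Trpc6, a diacylglycerol-opened channel, went the other way. It (chromosome 9, 8544142 to 8680741, plus strand) was at 11.7, 20.5 and 16.3 CPM in KO on chow, against 5.49, 8.84 and 6.75 CPM in controls on chow. No KO value was as low as any control value, and the difference was 1.18 ± 0.31, with an edgeR adjusted p of 0.263. Without both doubted libraries it was 1.06. Trpc5 and Trpc4, its relatives opened by Gq-coupled receptors, were lower, by -0.42 ± 0.22 and -0.28 ± 0.15, both short of an unadjusted p of 0.05. Kcne1l, a beta subunit gene on chromosome X, was at 23.7, 34.4 and 39.1 CPM in KO, against 22.7, 20.5 and 18.1 CPM in controls, with a difference of 0.57 ± 0.19. With the sex term taken from the reads the Kcne1l difference was 0.43, and without both doubted libraries it was 0.27, at an unadjusted p of 0.125 in edgeR.

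**Figure D3:**
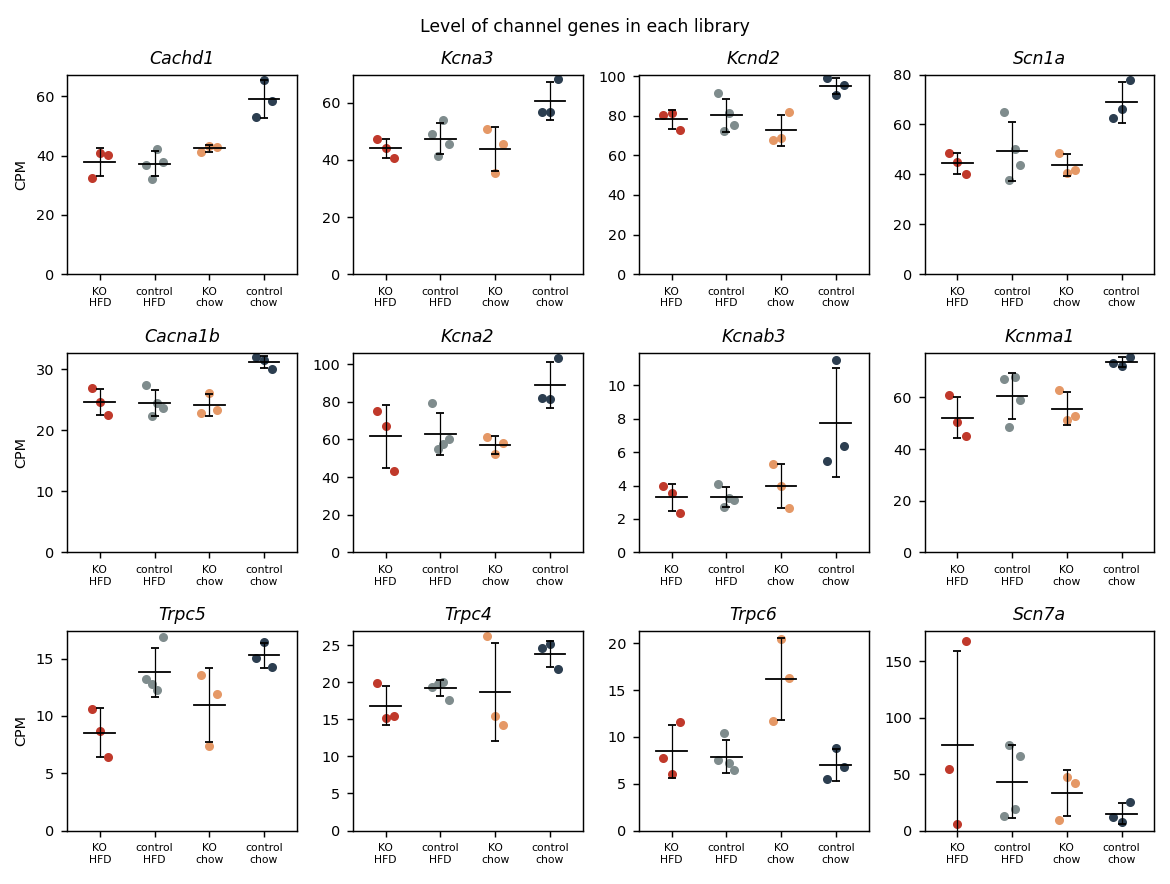
Level (CPM) of 12 channel genes in each library, by group, with 1 point per library and a bar and whiskers at the group mean and SD. Controls on chow stand above the other 3 groups for Cachd1 (52.9 to 65.7 CPM) and Cacna1b (30.1 to 32.0 CPM), KO on chow stands above them for Trpc6, and Scn7a spreads from 5.72 to 168 CPM within KO on HFD.

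Marker genes of whole cell types also differed between the groups on chow. All 10 neuron markers had a log2 difference below 0 (median -0.31), with a sum of 4590 to 5810 CPM in KO on chow, against 5410 to 6650 CPM in controls on chow. All 10 arcuate markers were above 0 (median 1.10), with 1200 to 2910 CPM in KO, against 748 to 803 CPM in controls. The 6 oligodendrocyte markers were all above 0 (2000 to 8600 CPM in KO, against 2610 to 4560 CPM in controls), as were the 6 ependyma markers (26.5 to 93.1 CPM, against 12.3 to 29.4 CPM) and the 6 microglia markers (213 to 291 CPM, against 181 to 252 CPM). None of the listed markers was at 0 in every library. The part of these lists in the channel difference was not tested.

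**Figure D4:**
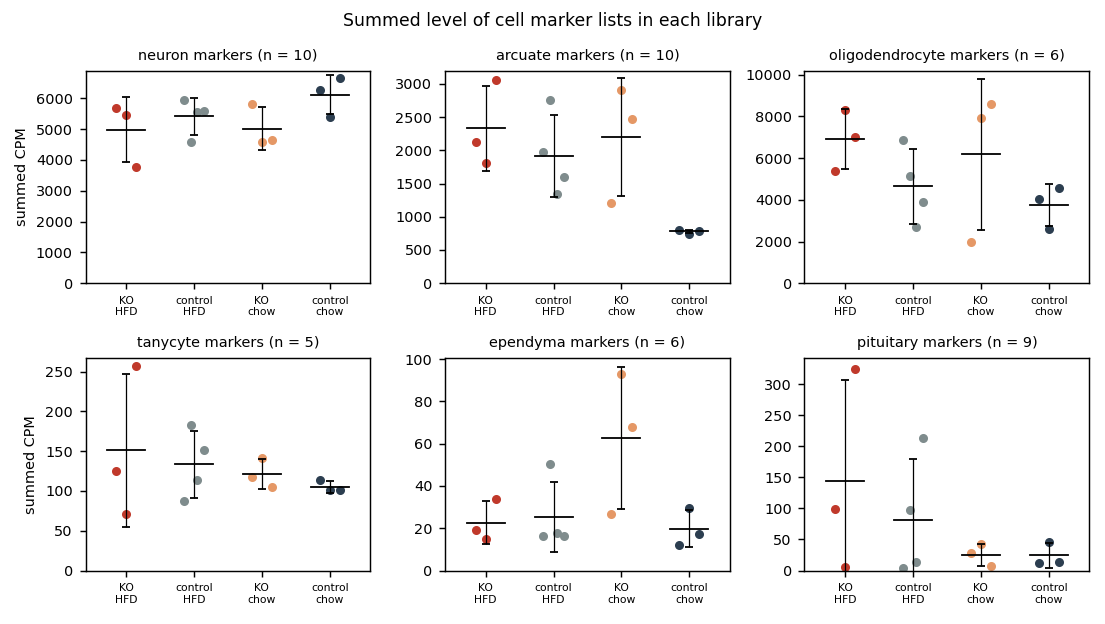
Summed CPM of 6 marker lists in each library, by group, with 1 point per library, a bar and whiskers at the mean and SD, and the number of genes summed above each panel. Arcuate markers in controls on chow (748 to 803 CPM) lie below all other libraries, and pituitary markers range from 6.18 to 325 CPM within KO on HFD.

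Length moved with the same groups. The slope of a library's log2 CPM deviation on log2 gene length was -0.0262 to 0.00466 in KO on chow, against 0.00818 to 0.0177 in controls on chow. With that trend removed, 28 channel genes had an unadjusted p under 0.05 on chow (against 11.7% of all genes). Of these, 24 were lower in KO (against 4.91%), and 93 channel genes had a difference below 0 (against 49% of all genes). Cachd1 then differed by -0.49.

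Genes that work with channels were also read. Of 43 listed partners 42 were tested, and on chow 35 had a difference below 0 and 7 above (against 50.4% of all genes below 0), with 10 lower and 2 higher at an unadjusted p under 0.05 (against 6.07% and 6.84%) and none past the adjusted threshold in edgeR. All 12 kept their sign without both doubted libraries and 5 kept that p, which were Gem, Ryr2, Ank2, Rrad and Slc12a5. Ryr2, the calcium release channel of internal stores, averaged 17.4 ± 1.31 CPM in KO and 30.8 ± 7.19 CPM in controls on chow (SD, n = 3 each), a difference of -0.78 ± 0.20. Ank2 and Ank3, scaffolds that anchor Nav and Kv channels, differed by -0.35 ± 0.10 and -0.44 ± 0.15, the chloride exporter Slc12a5 by -0.46 ± 0.13, and the sodium leak pore Nalcn and its partners Unc79 and Unc80 by -0.33 ± 0.11, -0.35 ± 0.12 and -0.29 ± 0.11. Higher were Gem and Rrad, small GTPases that restrain Cav channels, by 1.03 ± 0.25 and 0.45 ± 0.17. On HFD the same partners gave 30 below 0 and 12 above (against 51.0% of all genes below 0).

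On HFD the differences between KO and control in channel genes were centred nearer 0. There were 83 of 133 channel genes with a difference below 0 (62.4%, against 51.0% of all genes), with a median of -0.04. At an unadjusted p under 0.05 there were 3 (2.26%, against 1.66% of all genes), of which Trpc5 and Cacng6 were lower (against 0.906%) and Kcng2 higher (against 0.758%), and edgeR called 0 after adjustment, as it called 0 of all genes (0.0%). DESeq2 called 0 channel genes as well. Every KO library was below every control library for Cacng6, Cacna1i and Trpc5, 3 genes (2.26%, against 1.55%), and the reverse held for 0 channel genes (0.0%, against 1.87%). The count at an unadjusted p under 0.05 was 11 without Control_HFD replicate 2 (against 3.31% of all genes), 7 without KO_Chow replicate 1 (against 2.51%), 5 without KO_Chow replicate 3 (against 1.61%), and 1 without Control_HFD replicate 4 (against 1.69%) or KO_HFD replicate 3 (against 1.80%). It was 3 without the doubted Control_HFD replicate 3 (against 1.42%) and without both doubted libraries (against 1.58%).

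Trpc5 (chromosome X, 144381671 to 144688180, minus strand) had the smallest p on HFD. Its level was 10.6, 8.66 and 6.39 CPM in KO on HFD, against 13.2, 12.8, 12.3 and 16.9 CPM in controls on HFD. The highest KO library was below the lowest control library. The means were 8.54 ± 2.09 CPM in KO (SD, n = 3) and 13.8 ± 2.11 CPM in controls (SD, n = 4), and the difference was -0.68 ± 0.20, with an unadjusted p of 0.00641 and an edgeR adjusted p of 1. On chow the values were 13.6, 7.40 and 11.9 CPM in KO, against 15.1, 16.5 and 14.3 CPM in controls, again with no overlap. The HFD difference ranged from -0.82 to -0.50 with each library left out in turn. Its interaction of genotype and diet was -0.25 ± 0.30, at an unadjusted p of 0.411 in edgeR.

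Kcng2, a silent Kv subunit that modifies other Kv pores, was at 17.4, 11.9 and 15.6 CPM in KO on HFD, against 14.2, 10.5, 9.97 and 9.35 CPM in controls on HFD, and the groups overlap. The difference was 0.46 ± 0.17, and without both doubted libraries 0.44, at an unadjusted p of 0.0512 in edgeR. Cacng6 then differed by -0.52, at an unadjusted p of 0.175 in edgeR. Among the genes with the smallest p on chow, the HFD differences were -0.01 ± 0.10 for Cachd1, 0.02 ± 0.09 for Cacna1b and 0.09 ± 0.28 for Trpc6. These genes were picked by their p on chow in these same data, so differences nearer 0 in another comparison are no separate evidence. Class medians on HFD lay between -0.15, for calcium- or sodium-activated K genes, and 0.05, for K2P genes. Neuron markers summed to 3780 to 5700 CPM in KO on HFD, against 4570 to 5960 CPM in controls on HFD, and their part was not tested.

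**Figure D5:**
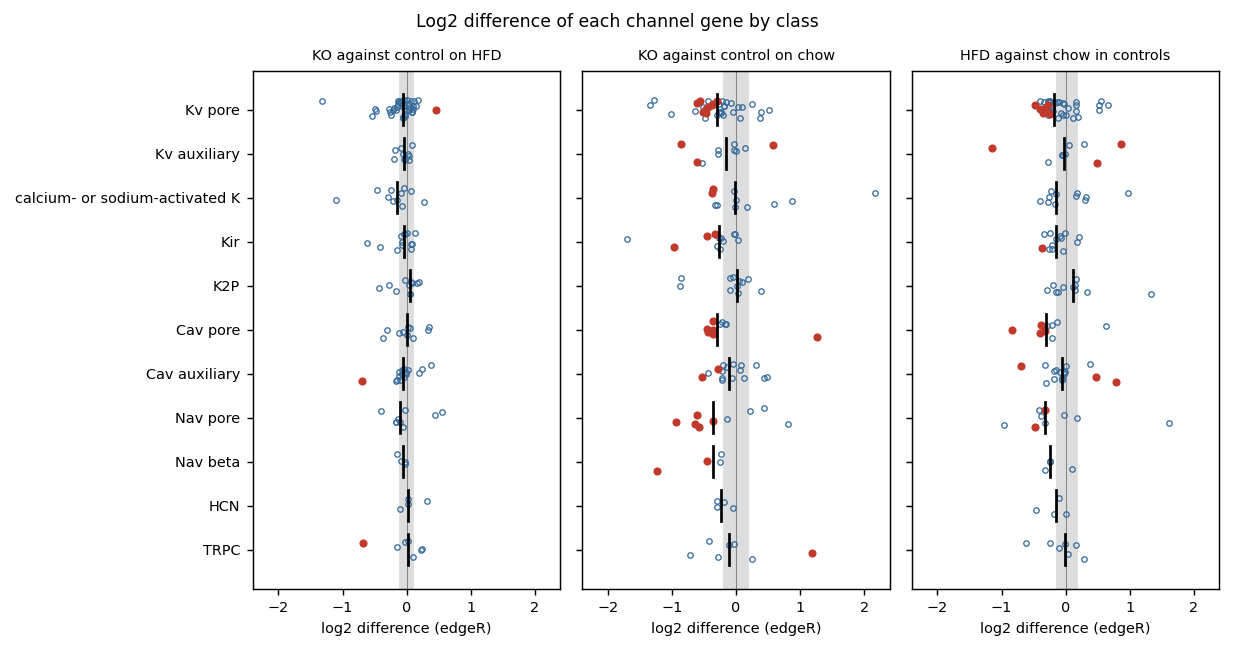
Log2 difference (edgeR) of each channel gene by class, for KO against control on HFD (left), KO against control on chow (middle) and HFD against chow in controls (right). Filled red points had an unadjusted p under 0.05, black bars are class medians, and the grey band runs between the quartiles of all 23622 genes. The middle and right panels use the same 3 chow control libraries, and their class medians lie mostly left of 0.

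In controls, most channel genes were lower on HFD than on chow. This comparison uses the same 3 chow control libraries as KO against control on chow, so the values of the 2 comparisons are not independent. There were 93 of 133 channel genes with a difference below 0 (69.9%, against 49.0% of all genes), with a median of -0.14. At an unadjusted p under 0.05 there were 20 (against 8.06% of all genes), 16 lower on HFD (against 3.91%) and 4 higher (3.01%, against 4.16%). EdgeR called 0 after adjustment (0.0% of all genes) and DESeq2 called 2, Cachd1 and Kcnab3 (against 0.195%). Every HFD control was below every chow control for 14 channel genes (10.5%, against 5.11%), and above for 2, Cacng6 and Kcne1l (against 4.90%). Without Control_Chow replicate 3 there were 8 at an unadjusted p under 0.05 (against 4.79% of all genes). There were as many without both doubted libraries (against 5.07%), which is near the share of all genes. In each case 7 of the 8 were lower on HFD (against 2.44% and 2.5%). Without both, 87 had a difference below 0 (against 48.5%). Of the 20 genes above, 6 kept that p without both, among them Cachd1, Kcnab3, Cacna1b and Cacna1a. All 10 neuron markers were below 0 here (4570 to 5960 CPM in controls on HFD, against 5410 to 6650 CPM in controls on chow), and all 10 arcuate markers were above 0 (1340 to 2760 CPM, against 748 to 803 CPM). All 6 microglia markers (236 to 341 CPM, against 181 to 252 CPM), all 6 oligodendrocyte markers (2690 to 6880 CPM, against 2610 to 4560 CPM) and all 6 tanycyte markers were above 0, and 6 of 9 pituitary markers were, with sums of 3.51 to 213 CPM on HFD, against 11.7 to 46.7 CPM on chow. The part of these lists in the difference was not tested.

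Cachd1 was the channel gene with the smallest p here too. It was at 36.9, 32.1, 42.3 and 38.0 CPM in controls on HFD, against 52.9, 65.7 and 58.3 CPM in controls on chow. All HFD values were lower than all chow values, and the difference was -0.69 ± 0.10, with an unadjusted p of 1.31e-05 and an edgeR adjusted p of 0.158. Over the libraries left out in turn it ranged from -0.77 to -0.58. In DESeq2 the adjusted p was 2.04e-06. In KO mice Cachd1 stood at 32.6, 40.9 and 40.1 CPM on HFD, against 41.2, 43.3 and 42.9 CPM on chow, a difference of -0.17 ± 0.10.

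Kcnab3, a cytosolic beta subunit of Kv pores (chromosome 11, 69326258 to 69333042, plus strand), was at 4.12, 2.69, 3.25 and 3.15 CPM in controls on HFD, against 5.46, 11.5 and 6.36 CPM in controls on chow. The groups did not overlap, and the difference was -1.16 ± 0.27, with an edgeR adjusted p of 0.563. Without Control_Chow replicate 2, its highest library, it was -0.85. Its exons overlap the antisense gene Kcnab3os, and the sources used here do not say whether counting used strand. Cacna1a, the P/Q-type pore, was at 21.3, 19.0, 13.4 and 10.2 CPM on HFD, against 28, 30.2 and 27.9 CPM on chow, a difference of -0.84 ± 0.24. The Cav pores as a class had 9 of 10 genes below 0 (against 49.0% of all genes) and a median of -0.31. The K2P genes had a median of 0.12.

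In KO mice, channel genes showed no common direction between diets. On HFD against chow 56 of 133 had a difference below 0 (42.1%, against 50.3% of all genes), and the median was 0.04. At an unadjusted p under 0.05 there were 5 (3.76%, against 4.05%), of which Trpc6, Cacna1s and Kcnmb1 were lower on HFD (against 2.07%) and 2, among them Scn4b, higher (against 1.98%), with 0 after adjustment in edgeR (0.0%) and 0 in DESeq2. Without KO_HFD replicate 3 there were 12 (against 4.61%), and without KO_Chow replicate 1 there were 9 (against 3.88%). Every HFD value of a gene was below every chow value for 5 channel genes (3.76%, against 5.03%), and above it for 3 (2.26%, against 3.80%). Trpc6 was at 7.73, 6.01 and 11.6 CPM in KO on HFD, against 11.7, 20.5 and 16.3 CPM in KO on chow, and the highest HFD library lay just under the lowest chow library. Its difference was -0.93 ± 0.29. Scn4b, a beta subunit linked to resurgent sodium current, was at 2.00, 2.49 and 2.78 CPM on HFD, against 0.545, 1.47 and 1.24 CPM on chow, a difference of 1.25 ± 0.41.

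The difference between the diets in the genotype effect was tested by the interaction, KO against control on HFD minus KO against control on chow. The same 3 chow control libraries enter the interaction with the opposite sign. Its values are therefore not independent of KO against control on chow or of diet in controls. The interaction was above 0 for 95 of the 133 channel genes and below 0 for 38 (28.6%, against 50.9% of all genes), with a median of 0.17. At an unadjusted p under 0.05 there were 17 (12.8%, against 5.10%), 13 of them above 0 (9.77%, against 2.61%). No channel gene passed the adjusted threshold in edgeR (0.0% of all genes), and DESeq2 called 0. Cachd1 had the smallest p, with 0.52 ± 0.14, an unadjusted p of 0.0032 and an edgeR adjusted p of 0.909. Among the Cav pores Cacna1g was at 0.53 ± 0.19 and Cacna1b at 0.37 ± 0.14. Cacna1s and Trpc6 were opposite, at -1.57 ± 0.43 and -1.09 ± 0.40. The count was 7 without both doubted libraries (against 4.22% of all genes) and 7 without KO_HFD replicate 1 (against 3.74%), both near the share of all genes, and 10 without Control_Chow replicate 3 (against 4.43%) or Control_HFD replicate 2 (against 3.45%). Without both doubted libraries Cachd1 was at 0.62, at an unadjusted p of 0.00182 in edgeR, and Cacna1g and Trpc6 no longer had an unadjusted p under 0.05, at 0.0681 and 0.0567.

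A few channel genes spread more between libraries than between groups. Scn7a, which encodes a sodium-sensing channel known from glia and tanycytes, was at 54.3, 5.72 and 168 CPM in KO on HFD, against 12.6, 75.8, 19.0 and 65.9 CPM in controls on HFD. On chow it was at 9.63, 47.3 and 41.8 CPM in KO, against 11.8, 7.22 and 25.3 CPM in controls. Both pairs of groups overlap. The other 5 tanycyte markers summed to 257 CPM in KO_HFD replicate 3, the library with the most Scn7a, and to 70.5 CPM in KO_HFD replicate 2, the one with the least. Kcnj13, a Kir gene known from the choroid plexus, ranged from 0.293 to 17.1 CPM within KO on HFD, against 0.610 to 16.3 CPM within controls on HFD. The other 4 choroid plexus markers did not follow it within KO on HFD. They summed to 2.08 CPM in replicate 2, with the most Kcnj13, and to 2.60 CPM in replicate 1, with the least.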

How the data were processed

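RNA-seq libraries of mouse arcuate tissue were made with a Takara SMART-Seq Ultra Low Input v4 kit after Trizol extraction, per the labels' protocols. Raw counts per gene were deposited by the authors, and the tools listed per the submitters' processing notes are FastQC, STAR, Subread, STAR-Fusion and edgeR, with the build mm10. No source used here gives the annotation, strand setting or filters. RPKM values were also deposited by the authors, and each equals the count per kb of gene length and per M counts in its column. These RPKM values were used for levels between genes and CPM, computed here with TMM factors, within a gene.

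Counts were tested with edgeR 4.0.16 (quasi-likelihood F test, robust, TMM, filterByExpr) in R 4.3.3, in a single fit over 4 groups plus a term for the letter of sex in the titles, on 23622 genes. P-values were adjusted by Benjamini-Hochberg over all genes, with a threshold of 0.05. The fit had 8 residual degrees of freedom. Alternatives were DESeq2 1.42.0, limma 3.58.1 (voom), other size factors, other filters, other sex terms, a length correction, and libraries left out. On simulated counts for KO against control on chow, over 23622 genes, edgeR recovered 92.4% of 66 genes with a log2 change of 1. It also called 9 genes that were not changed. Only genes above 1 CPM were changed, and the simulated spread was set below that of the data (common biological coefficient of variation 0.23). The share recovered is therefore not the power for the data, nor for the smaller differences reported here.

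Channel genes, classes, partner and marker lists were chosen with earlier results of these data known. Named genes were the 3 highest by RPKM in each class, a list of channels known in arcuate neurons, and up to 6 in each direction with the smallest p per comparison among those with a mean log2 CPM of at least 1; genes named outside this rule were chosen after their values were seen. Gene positions are from GENCODE M21 (GRCm38), where 124 of 134 channel genes matched by identifier version and symbol, and promoters are from RefSeq (GRCm38.p6). Of the 124 channel genes matched in GENCODE, 33 overlap exons of a gene on the opposite strand and 3 (Trpc2, Kcnk4 and Cacng8) on the same strand, so that reads could be shared. The unmatched channel genes were not checked for overlaps. Depth was 34.7 to 68.2 M counts per library, at which 1 count was 0.0147 to 0.0288 CPM. Kcnk15 did not pass the filter and was not tested. Results of some single channel genes are not reported here, and such genes stay in the counts and class values.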

Additional observations from a re-analysis of the deposited data

Results flagged for a closer look

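Among the 4 controls on HFD, 1 library stood far from the other 3 for a few channel genes. Kcnt2, a sodium-activated potassium channel, was at 10.7 CPM in Control_HFD replicate 1 and at 6.77 to 7.36 CPM in the others. Kcnip3 was at 82.8 CPM in Control_HFD replicate 2, against 92.5 to 94.2 CPM in the others. Kcnj10, a glial Kir gene, was at 38.9 CPM in Control_HFD replicate 3, the library with KO-like Hsd11b2, and at 26.3 to 28.3 CPM in the others. Such sets of 4 libraries numbered 86, and only the 3 above were marked. Chance alone marks about 1 in 20 such sets, so these are no more than chance would mark.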

How the results depend on the processing

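Each summary result was set against the alternatives that kept all libraries or left out both doubted ones. Of these pairs of a result and an alternative, 294 stayed near the main value, and 6, from 5 results, moved. A class median was taken as near where it moved by less than the spread between libraries within groups, so its sign could change. The Kv auxiliary median for diet in controls went from -0.025 to 0.121 without both doubted libraries and was taken as near. DESeq2 called 7 channel genes on chow and 2 for diet in controls, where edgeR called 0, and with no filter on low counts edgeR called 1, Cachd1, for diet in controls. Of the 134 channel genes tested without both doubted libraries, 16 had an unadjusted p under 0.05 for KO against control on chow (against 9.95% of all genes). For diet in controls there were 8 (against 5.07%), and for the interaction 7 (against 4.22%). Counted in either direction, each was near the share of all genes. With each of 13 libraries left out in turn, the number of channel genes at that p ranged from 18 to 41 for KO against control on chow. All genes in those runs stood at 8.42% and 14.3%. For KO against control on HFD it ranged from 1 (against 1.69% or 1.80%) to 11 (against 3.31%). For diet in controls it ranged from 8 (against 4.79%) to 27 (against 9.02% or 10.6%). For diet in KO it ranged from 4 (against 2.65% or 4.86%) to 12 (against 4.61%). For the interaction it ranged from 7 (against 3.74%) to 23 (against 7.27%). In the same runs the chow class median ranged from -0.422 to -0.240 for Kv pores, from -0.120 to 0.151 for calcium- or sodium-activated K genes, from -0.590 to -0.272 for Nav pores and from -0.294 to -0.051 for TRPC genes. The HFD median of Kv auxiliary genes ranged from -0.193 to 0.092, and the diet median of Cav pores in controls from -0.369 to -0.194. Over all channel genes the diet median in KO ranged from -0.030 to 0.110 and the interaction median from 0.107 to 0.261. The cause was not tested. No paired analysis was possible because replicate numbers follow the order of the samples, and of the other numbers in the titles only 1 is shared between a KO and a control library, both on HFD.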
